A study of Homo sapiens with 12 samples.

Results

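GSK343, an inhibitor of the histone methyltransferase EZH2, was added to cells that also received XL413, an inhibitor of the kinase CDC7, and the RNA was compared with that of cells given XL413 without GSK343. The cells were A375, a BRAF-mutant human melanoma line, and both groups were treated for 24 h. The XL413 group had 1 µM XL413, and the group given both compounds, called the combination below, had 1 µM of each. Members were chosen by treatment label: 3 libraries per group, 6 of the 12 libraries of the series. The other 6, 3 with the solvent DMSO and 3 with 1 µM GSK343, show what GSK343 did without XL413 and add to the estimate of the spread between replicates. Per the labels the replicates were biological, and poly-A RNA was made into strand-specific libraries. All the cells are 1 line, so p-values measure the spread between these cultures. The files hold RNA counts and no measure of EZH2 or CDC7 activity.

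EZH2 is the catalytic subunit of Polycomb repressive complex 2, which methylates histone H3 at lysine 27 and keeps developmental genes silent. CDC7, with its activator DBF4, phosphorylates the MCM helicase so that licensed replication origins can fire. Genes of cholesterol synthesis are switched on by the transcription factor SREBP2, which leaves the endoplasmic reticulum for the Golgi when membrane sterol is low, and INSIG proteins hold it back when sterol is ample.

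The 6 libraries held total expected counts of 31553205 to 39079931, and 18175 to 18480 genes had a count in each. Of 26475 genes, 15443 were tested. Levels below are CPM, a gene's share of its library's counts after scaling, and a gene is called changed when its adjusted p is under 0.05. Combination replicate 2 stood apart. Its deviation from the mean of the other libraries of its group had an SD across genes of 0.277 on the log2 scale. The same SD was 0.14 to 0.183 in the other 11 libraries. A chi-square per gene between its counts and those of combination replicates 1 and 3 was 26.4 and 31.5, against 2.33 to 10.6 for every other pair of replicates. Longer transcripts were lower in it and shorter ones higher (rho −0.643 over genes, which are not independent replicates). Other libraries had length trends too. The rho was 0.336, −0.377 and 0.0233 in XL413 replicates 1 to 3, and −0.449, −0.205 and 0.523 in GSK343 replicates 1 to 3. It was 0.494 and 0.568 in combination replicates 1 and 3, which are measured in part against replicate 2. The fold changes of the comparison moved with combination replicate 2: across 12163 genes their rho with length was −0.342 with this library and 0.0772 without it. With genes in 5 equal classes by length, the median log2 fold change of the shortest class was 0.06 with it and −0.01 without it, and of the longest −0.06 and 0.01. Findings are therefore given with all 3 combination libraries and again without replicate 2.

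**Figure D1:**
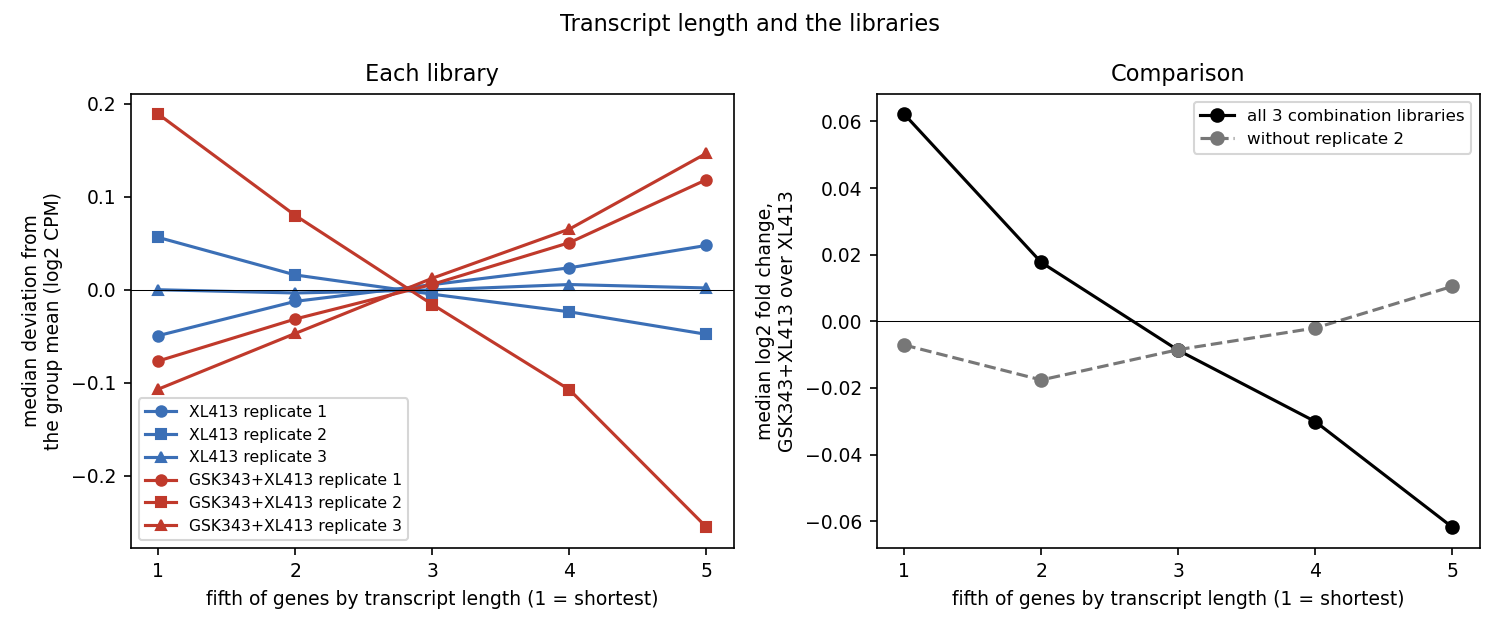
Genes were divided into 5 equal classes by transcript length, from shortest (1) to longest (5). The left panel plots each library's median deviation in log2 CPM from the mean of the other libraries of its group (blue XL413, red combination). Its axis label calls this mean the group mean. The right panel plots the median log2 fold change of the comparison. Combination replicate 2 runs from 0.189 in the shortest class to −0.256 in the longest, and the medians of the comparison lie near 0 in every class when it is left out.

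GSK343 on top of XL413 changed few genes, and by little. By edgeR's quasi-likelihood test 121 genes changed, 0.784% of those tested, with 86 higher (0.557%) and 35 lower (0.227%). The median called change was 1.25-fold, 1.28-fold for rises and 1.19-fold for falls. At least 1.5-fold rises numbered 14, and no gene fell by as much (0 lower at 1.5-fold). Without combination replicate 2 the count was 252 of 15584, or 1.62%, with 129 higher (0.828%) and 123 lower (0.789%). The median called change was then 1.17-fold, 1.24-fold for rises and 1.13-fold for falls. All 113 genes called in both fits moved the same way. At an unadjusted p under 0.05 stood 15% of all tested genes, the share to read beside the unadjusted counts of the lists below. In all 121 called genes the 3 libraries of each group did not overlap, as was true of 19.9% of all tested genes. The median log2 fold change of all tested genes was 0.0071, or −0.0007 without replicate 2.

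The number of genes that passed varied with the libraries in the fit. With 1 library left out at a time the count moved by over 1.5 times without XL413 replicate 1 (40 genes), 2 (48) and 3 (58), and without DMSO replicates 2 and 3 (76 each). A fit of only the 6 libraries compared called 18 genes, 17 higher and 1 lower, and the same fit without combination replicate 2 called 399. The balance of directions also moved with the method: 71.1% of calls were rises with the main scaling, 60.7% with RLE size factors (85 higher, 55 lower), 81.2% with upper quartile scaling (104 and 24), 42.9% with DESeq2 (126 and 168) and 43% with offsets for length and GC content (180 and 239). The DESeq2 and offset counts come from the same 15443 genes. They are the background for the counts of these 2 fits in the lists below. In all 12 fits that left out 1 library, 38 genes were called, 29 higher and 9 lower. Of these 38, 12 belong to the 2 sterol lists described next. Bulk RNA cannot tell fewer cells of a kind from less RNA per cell.

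Most enzymes of cholesterol synthesis rose. Of the 20 enzymes on the list from acetyl-CoA to cholesterol, 15 rose and 0 fell, with 15 and 0 also without combination replicate 2. All 20 estimates were above 0, and their median log2 fold change was 0.36, or 0.35 without replicate 2, beside 0.0071 over all tested genes, of which 52.1% were above 0. The summed level of the 20 genes was 1174 to 1183 CPM with XL413 and 1472 to 1481 CPM with the combination. The list's count was 15 by DESeq2, 14 by limma-voom and 15 with length and GC offsets, 10 to 15 when 1 library was left out, with the fewest without XL413 replicate 1, and 6 in the fit of only the 6 libraries compared.

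The first steps lead to mevalonate. HMGCS1, the cytosolic HMG-CoA synthase, lies on chromosome 5 at 43289395 to 43313512 (GRCh38, minus strand). Its levels were 41.53, 39.27 and 39.7 CPM with XL413 and 68.14, 67.1 and 71.2 CPM with the combination. Each combination library lay far above each XL413 library, and no other gene of the table had a smaller p. The log2 fold change was 0.78 ± 0.04 (SE; adjusted p = 2.51e-06), and 0.79 without replicate 2 (adjusted p = 1.54e-07). ACAT2, the thiolase that precedes it, rose by 0.23 (adjusted p = 0.0259; 0.21 without replicate 2, adjusted p = 0.0198). Its call was lost without DMSO replicates 2 and 3, each XL413 library (adjusted p up to 0.17) or combination replicate 1.

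Next come the steps from mevalonate to squalene. MVK, the mevalonate kinase, rose by 0.37 (adjusted p = 0.00557) and MVD, the decarboxylase, by 0.46 (adjusted p = 0.00252). IDI1, the isomerase of the isoprenoid unit, rose by 0.40 (adjusted p = 0.00327). FDFT1, squalene synthase, measured 118.3, 115.9 and 117 CPM with XL413 and 153.8, 171.6 and 154.3 CPM with the combination. Here replicate 2 was the highest library, and the log2 fold change was 0.45 with it (adjusted p = 0.00027) and 0.39 without it (adjusted p = 4.94e-06). Without replicate 2 the values were 0.34 for MVK, 0.39 for MVD and 0.34 for IDI1, all still called. These 4 genes were called in all 12 fits that left out 1 library. PMVK (0.21, adjusted p = 0.233) and FDPS (0.14, adjusted p = 0.21), which act between them, were not called, and their estimates without replicate 2 were 0.09 and 0.09.

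The post-squalene steps held the other large rises. SQLE, squalene epoxidase, went from 33.45, 32.73 and 33.65 CPM to 46.07, 45.89 and 49.31 CPM, which is 0.50 ± 0.04 (adjusted p = 0.000195; 0.52 and 1.03e-05 without replicate 2). MSMO1, the methylsterol oxidase, measured 12.6, 13.59 and 13.76 CPM with XL413 and 19.96, 22.59 and 21.12 CPM with the combination. Its rise was 0.67 ± 0.07 (adjusted p = 0.000294; 0.62 and 0.00016 without replicate 2). No combination library of SQLE or MSMO1 came near the XL413 range. SC5D and DHCR7, the desaturase and reductase near the end of the pathway, rose by 0.42 (adjusted p = 0.000474) and 0.45 (adjusted p = 0.000355), and CYP51A1, lanosterol demethylase, by 0.34 (adjusted p = 0.0044). Without replicate 2 these were 0.43, 0.47 and 0.30, all called. SQLE, MSMO1, SC5D, DHCR7 and CYP51A1 were called in all 12 fits. HSD17B7 (0.49, adjusted p = 0.00628; 0.41 without replicate 2, adjusted p = 0.00707) lost its call without XL413 replicate 1 (adjusted p = 0.0573). LSS, lanosterol synthase, rose by 0.22 (adjusted p = 0.0394; 0.23 without replicate 2, adjusted p = 0.016), a call lost on leaving out any library other than combination replicate 2 (adjusted p from 0.0593, GSK343 replicate 1, to 0.232, XL413 replicate 1). Another 3 were not called: NSDHL at 0.20 (adjusted p = 0.138), EBP at 0.18 (adjusted p = 0.214) and TM7SF2 at 0.10 (adjusted p = 0.772). Without replicate 2 they stood at 0.18, 0.10 and 0.13. Beyond the 6 with the smallest p, members were named so that the steps of the pathway could be followed.

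**Figure D2:**
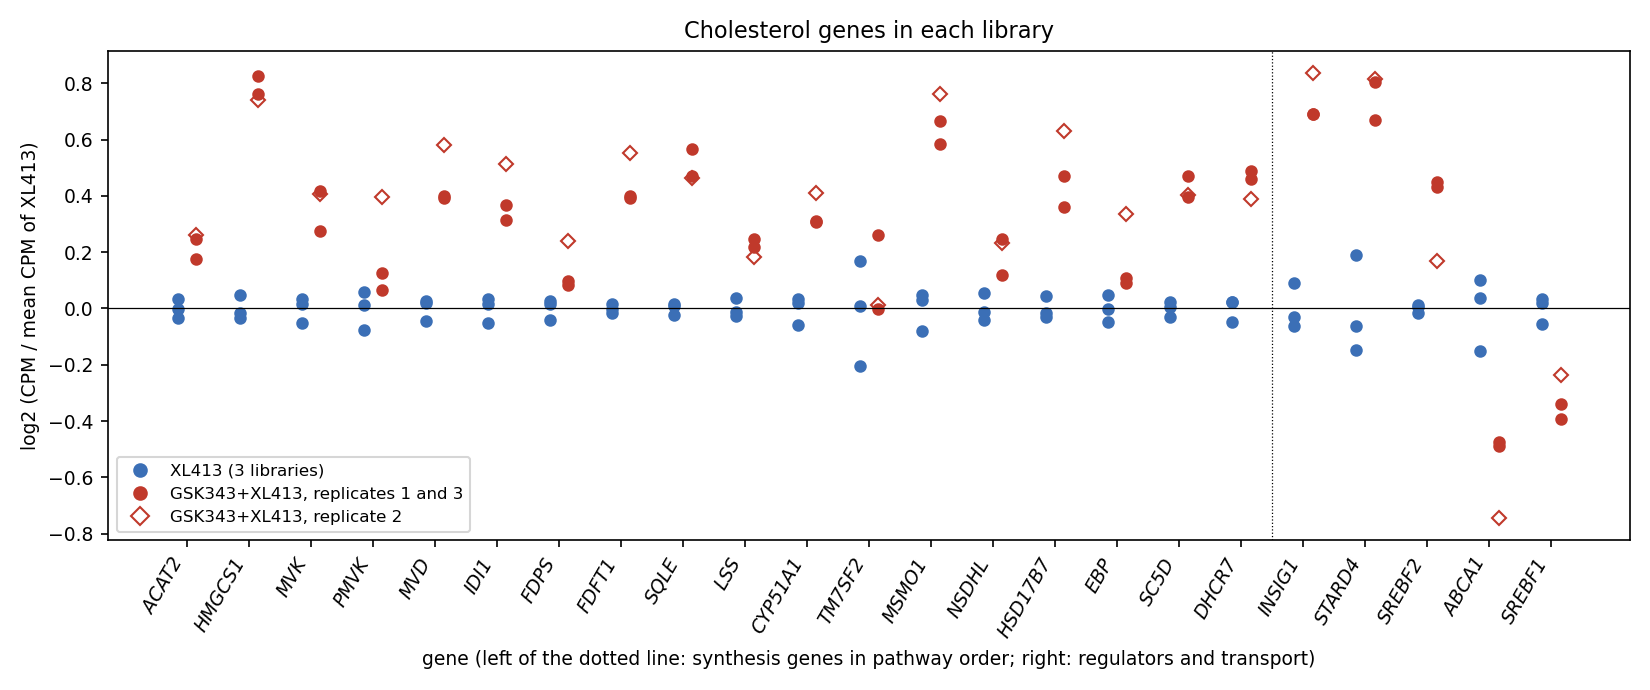
Each point is 1 library's level of a gene as the log2 ratio of its CPM to the mean CPM of the 3 XL413 libraries (blue XL413, red combination, open diamond combination replicate 2). The synthesis genes, 18 of the 20 on the list, stand in pathway order left of the dotted line, where HMGCS1 and MSMO1 rise most. Right of it INSIG1, STARD4 and SREBF2 rise, SREBF1 falls, and ABCA1, which was not called, lies below 0.

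The regulators of the pathway did not move as a block. Of 17 tested genes of sterol sensing, uptake and efflux, 3 rose and 0 fell, and the median log2 fold change was −0.02 (3, 0 and 0.05 without replicate 2). INSIG1, which retains the SREBP escort complex in the endoplasmic reticulum and is itself an SREBP target, measured 14.96, 13.47 and 13.76 CPM with XL413 and 22.72, 25.11 and 22.72 CPM with the combination. That is 0.74 ± 0.07 (adjusted p = 0.000219; 0.69 and 7.72e-05 without replicate 2). STARD4, a cytosolic sterol carrier, measured 7.437, 7.887 and 9.396 CPM against 14.38, 14.5 and 13.09 CPM, or 0.76 ± 0.09 (adjusted p = 0.0013; 0.73 and 0.00119 without replicate 2). Both were called in all 12 fits, and in neither did the groups overlap.

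SREBF2, the gene of SREBP2, measured 78.42, 77.2 and 78.83 CPM with XL413 and 106.8, 87.88 and 105.4 CPM with the combination. Replicate 2 was the lowest of the 3 combination libraries. The rise was 0.36 (adjusted p = 0.0175) with it and 0.44 (adjusted p = 1.03e-05) without it. The SREBF2 call was lost without XL413 replicate 1 (adjusted p = 0.132), 2 (0.112) or 3 (0.078) and without combination replicates 1 (0.0799) or 3 (0.0699). The sterol efflux transporters had estimates below 0 that missed the threshold. ABCA1 went from 6.416, 7.31 and 7.652 CPM to 5.084, 4.254 and 5.128 CPM (−0.57, adjusted p = 0.0835; −0.48 and 0.111 without replicate 2). ABCG1, at under 1 CPM, was at −1.25 (adjusted p = 0.0748; −1.31 and 0.105 without replicate 2). DESeq2 and the fit with length and GC offsets each called 1 member of this list lower.

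Fatty acid genes split. SREBF1, the gene of the SREBP that drives fatty acid synthesis, measured 91.72, 90.8 and 86.11 CPM with XL413 and 70.71, 75.95 and 68.19 CPM with the combination. It fell in all 12 fits, by 0.32 ± 0.05 (adjusted p = 0.00628; −0.37 and 0.000218 without replicate 2). A fit of only the 6 libraries compared called 0 members of this list in either direction. SCD, the stearoyl-CoA desaturase, measured 218.5, 209.2 and 216.8 CPM against 257, 234.9 and 265.9 CPM, a rise of 0.23 (adjusted p = 0.0285; 0.28 and 0.000198 without replicate 2). The SCD call was lost without any DMSO or XL413 library, GSK343 replicate 2, or combination replicates 1 or 3 (adjusted p up to 0.168). No other of the 20 tested members was called with all libraries, and FASN, fatty acid synthase, stood at −0.15 (adjusted p = 0.378; −0.06 without replicate 2). FADS1 and LPIN1 were called higher only without replicate 2 (0.17 and 0.22).

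Promoters are shown for HMGCS1 and MVK because most synthesis genes rose together, and for SREBF2 because it is the 1 sterol-handling gene whose promoter held the element searched. The sequences are RefSeq's on GRCh38.p14, 250 bases that end just before RefSeq's annotated start, written 5′ to 3′ on the gene's strand. Gene positions are GENCODE's, whose starts can differ, and the HMGCS1 position given above overlaps its printed sequence. Of the 20 synthesis genes 15, and of the 19 sterol-handling genes 15, have a sequence in the table used. The sterol response element was searched as TCACNCCAC on both strands. It was found in 0 of the 15 synthesis promoters, in 1 of the 15 sterol-handling promoters (SREBF2) and in 1.09% of 27305 gene promoters. The CCAAT box (CCAAT, both strands), a site of the factor NF-Y that often stands beside SREBP sites, was added after the sequences had been seen. It was found in 13 of the 15 synthesis promoters, 8 of the 15 sterol-handling promoters and 37% of all promoters. These are matches of letters, and binding was not measured.

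The capitals mark the match to TCACNCCAC in SREBF2 (chr22:41832855-41833104, plus strand), 133 bases before the start.
SREBF2: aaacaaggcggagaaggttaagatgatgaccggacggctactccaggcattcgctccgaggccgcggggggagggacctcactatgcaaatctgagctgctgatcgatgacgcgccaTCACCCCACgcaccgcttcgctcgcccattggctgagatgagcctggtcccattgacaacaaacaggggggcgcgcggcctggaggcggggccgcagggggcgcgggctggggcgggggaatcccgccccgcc
In the next promoters the capitals mark CCAAT, read on either strand: 2 matches in HMGCS1 (chr5:43313413-43313662, minus strand), the gene with the smallest p, and 5 in MVK (chr12:109573544-109573793, plus strand).
HMGCS1: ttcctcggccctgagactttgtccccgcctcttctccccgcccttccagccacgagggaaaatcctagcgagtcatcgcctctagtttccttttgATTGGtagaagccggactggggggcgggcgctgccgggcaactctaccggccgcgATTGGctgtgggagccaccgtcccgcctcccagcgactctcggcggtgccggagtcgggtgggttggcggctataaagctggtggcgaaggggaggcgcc
MVK: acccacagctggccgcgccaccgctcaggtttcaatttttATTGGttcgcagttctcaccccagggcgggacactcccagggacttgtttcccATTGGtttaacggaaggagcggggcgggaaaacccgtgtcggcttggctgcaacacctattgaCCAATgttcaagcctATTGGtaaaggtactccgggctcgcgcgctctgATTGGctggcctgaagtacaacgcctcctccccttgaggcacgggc
The MVK sequence lies between 2 genes that start 289 bases apart on opposite strands, MVK and MMAB. MMAB, which makes a form of vitamin B12, was named after its values were seen. It measured 30.91, 32.29 and 32.61 CPM with XL413 and 39.84, 42.69 and 40.77 CPM with the combination. That is a rise of 0.36 (adjusted p = 0.00628; 0.33 and 0.00561 without replicate 2), beside 0.37 for MVK. The MMAB call was lost without XL413 replicate 1 (adjusted p = 0.0649).

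A few secreted factors rose as much as the sterol genes did. Of 29 tested genes of NF-kB signalling and secreted inflammatory factors, 5 rose and 0 fell (5 and 1 without replicate 2), and the list's median log2 fold change was 0.05 with and without it. MMP3, stromelysin, a matrix metalloproteinase on chromosome 11 (102835801 to 102843803, minus strand), measured 10.18, 10.2 and 10.02 CPM with XL413 and 18.91, 17.79 and 17.82 CPM with the combination. The rise was 0.84 ± 0.09 (adjusted p = 0.000352; 0.85 and 0.000145 without replicate 2). PTGES, a prostaglandin E synthase, measured 8.778, 8.817 and 8.13 CPM against 14.26, 13.57 and 14.35 CPM, or 0.71 ± 0.08 (adjusted p = 0.000438; 0.74 and 0.000198). IL24, a cytokine of the IL-10 family, measured 14.09, 14.62 and 13.17 CPM against 21.79, 21.94 and 22.15 CPM, or 0.65 ± 0.07 (adjusted p = 0.000352; 0.65 and 0.000172). MMP1, the interstitial collagenase, rose by 0.47 (adjusted p = 0.00329; 0.47 and 0.00222). In all 4 genes the groups were well apart, replicate 2 lay close to its group, and all 12 fits called them.

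IL11, a cytokine of the IL-6 family, rose by 0.30 (adjusted p = 0.0259; 0.24 and 0.024 without replicate 2), and this call was lost without DMSO replicates 2 or 3, GSK343 replicate 2, any XL413 library or combination replicate 3 (adjusted p up to 0.17). DESeq2 called 5 members of the list higher and 2 lower, and the fit with length and GC offsets 5 and 1. NFKB2, the p100 subunit, was called lower by edgeR only without replicate 2 (−0.15, adjusted p = 0.0445; −0.13 and 0.128 with it). Further NF-kB targets were not called by edgeR with all libraries. CXCL8 stood at 0.12 (adjusted p = 0.315), CXCL1 at 0.06 (adjusted p = 0.607), NFKBIA at −0.02 (adjusted p = 0.913) and TNFAIP3 at 0.05 (adjusted p = 0.728), and these were named after their values were seen. Without replicate 2 they stood at 0.05, −0.01, −0.11 and 0.10. The kappa B site, searched as GGAATTTCC on both strands, was found in 9 of 24 promoters of this list and in 0.502% of all promoters, and in 0 of the 3 called members that have a promoter in the table.

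Other large rises were GDF15, FGFBP1 and ID2. GDF15, a stress-induced secreted factor, measured 9.974, 9.779 and 11.62 CPM against 14.88, 17.87 and 16.39 CPM, or 0.65 ± 0.09 (adjusted p = 0.00256; 0.58 and 0.00218 without replicate 2), and was called in all 12 fits. FGFBP1, which releases fibroblast growth factors from matrix, was at 1.866, 2.116 and 2.082 CPM against 3.503, 3.943 and 3.495 CPM. Its rise was 0.85 ± 0.14 (adjusted p = 0.0126; 0.79 and 0.025 without replicate 2), and its call was lost without XL413 replicate 1 (0.104), 2 (0.061) or 3 (0.054). ID2, an inhibitor of basic helix-loop-helix factors, rose by 0.67 ± 0.12 (adjusted p = 0.0262; 0.61 and 0.0406), a call lost without XL413 replicates 1 (0.161) or 2 (0.133) or combination replicates 1 (0.063) or 3 (0.057). The largest fold of all, 1.41 on the log2 scale, was of GCNT3 at under 1 CPM. It was named after its value was seen, and each of the 12 fits lost its call (adjusted p up to 0.229, and 0.0792 without replicate 2).

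SQSTM1, the autophagy receptor p62, was the 1 member of 32 lysosome and autophagy genes that edgeR called higher, and 0 were called lower (1 and 0 without replicate 2). DESeq2 and the fit with length and GC offsets each called 2 higher. It lies on chromosome 5 at 179806398 to 179838078 (plus strand) and measured 583.4, 595.4 and 575.4 CPM with XL413 and 819.4, 899.6 and 807.3 CPM with the combination. The rise was 0.53 ± 0.05 (adjusted p = 0.000219; 0.47 and 1.25e-05 without replicate 2). The list's median was 0.02 with and without replicate 2, and MAP1LC3B, the LC3 protein that p62 binds, named after its value was seen, stood at 0.11 (adjusted p = 0.412; 0.02 without replicate 2). GPNMB, a transmembrane glycoprotein of melanosomes and lysosomes, measured 50.48, 49.82 and 49.68 CPM against 70.5, 65.75 and 72.97 CPM, or 0.48 ± 0.04 (adjusted p = 0.000219; 0.52 and 2.69e-06). Both were called in all 12 fits and by a fit of only the 6 libraries compared.

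Further rises called in all 12 fits, named after their values were seen, belong to no list. UCA1, a long noncoding RNA, measured 60.14, 58.64 and 59.73 CPM against 78.03, 74.91 and 81.77 CPM (0.39, adjusted p = 0.000438; 0.42 without replicate 2). NOV, a matricellular protein of the CCN family, went from 13.82, 14.14 and 14.94 CPM to 22.41, 21.48 and 22.75 CPM (0.63, adjusted p = 0.000438; 0.66 without replicate 2). IDH1, the cytosolic isocitrate dehydrogenase that makes NADPH, rose by 0.31 (adjusted p = 0.00209; 0.28 without replicate 2). PMEPA1, an inhibitor of TGF-beta signalling, rose by 0.33 (adjusted p = 0.000826; 0.35 without replicate 2). CD55, a complement regulator, rose by 0.31 (adjusted p = 0.00244; 0.32 without replicate 2). FST, follistatin, rose by 0.31 (adjusted p = 0.00294; 0.27 without replicate 2). Of the 86 risers, 18 were on the 2 sterol lists and 58 on no list.

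Of 31 tested ATF4 targets, many of them genes of amino acid metabolism, 4 fell and 1 rose, with a median log2 fold change of −0.12. A fit of only the 6 libraries compared called 0 in either direction, and DESeq2 called 7 lower and 1 higher. Without replicate 2, 8 fell and 1 rose, with the same median of −0.12. SLC6A9, a glycine transporter, measured 13.39, 12.6 and 12.63 CPM with XL413 and 8.463, 9.545 and 8.853 CPM with the combination, a fall of 0.52 ± 0.08 (adjusted p = 0.00628; −0.58 and 0.00217 without replicate 2). PSAT1, an aminotransferase of serine synthesis, measured 349.5, 348.9 and 361.8 CPM against 298.1, 313.6 and 293.9 CPM, or −0.23 ± 0.03 (adjusted p = 0.00664; −0.26 and 0.000172). GPT2, the mitochondrial alanine aminotransferase, measured 70.29, 66.53 and 67.21 CPM against 56.67, 54.11 and 57.96 CPM, or −0.27 ± 0.04 (adjusted p = 0.00664; −0.25 and 0.00313). These 3 genes were called in all 12 fits. CBS, cystathionine beta-synthase, which has a near-identical copy in this genome build that RSEM could share reads with, was at −0.29 (adjusted p = 0.0428; −0.36 and 0.00283). The CBS call was lost without any DMSO or XL413 library, GSK343 replicate 1, or combination replicates 1 or 3 (adjusted p up to 0.159). ASNS, PHGDH, MTHFD2 and SLC1A5 were called lower only without replicate 2, at −0.22, −0.17, −0.15 and −0.21. Here and below, members called only without replicate 2 were named after their values were seen.

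Within the same list PPP1R15A, the phosphatase subunit that reverses the integrated stress response, rose. It measured 79.73, 79.54 and 83.67 CPM against 92.85, 101 and 97.53 CPM, or 0.26 ± 0.04 (adjusted p = 0.0111; 0.23 and 0.00707 without replicate 2), and its call was lost without XL413 replicates 1 (0.11) or 2 (0.0964). ATF4 itself stood at −0.04 (adjusted p = 0.648; −0.09 without replicate 2). The response element of ATF4, searched as TGATGNAA on both strands, was found in 5 of 25 promoters of the list and 3.89% of all promoters, and in 0 of the 4 called members with a promoter in the table. YARS, a tRNA synthetase outside the list, named after its values were seen, was called lower in all 12 fits at −0.19 (adjusted p = 0.00695; −0.19 and 0.00123 without replicate 2).

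Of 23 heat shock genes, 2 fell and 0 rose (3 and 0 without replicate 2), and the median log2 fold change was −0.07, or −0.08 without replicate 2. The 2 were the inducible HSP70 genes. HSPA1A measured 120.9, 115.5 and 129.1 CPM with XL413 and 93.47, 98.2 and 98.79 CPM with the combination, −0.33 ± 0.04 (adjusted p = 0.00294; −0.35 and 0.000612 without replicate 2), in all 12 fits. HSPA1B measured 109.6, 112.6 and 99.17 CPM against 84.2, 86.92 and 73.49 CPM, −0.39 ± 0.06 (adjusted p = 0.00721; −0.45 and 0.000586). Its call was lost without XL413 replicate 1 (adjusted p = 0.0527), which leaves 1 member of the list. The 2 genes are near-identical copies, so RSEM's split of reads between them is uncertain and they are not independent results. DNAJB1, a co-chaperone of HSP70, was called only without replicate 2 (−0.16). DESeq2 called 5 members lower, the fit with length and GC offsets 7 and a fit of only the 6 libraries compared 0. Of 18 endoplasmic reticulum chaperones, 0 were called by edgeR with or without replicate 2, 0 by DESeq2 and 0 by limma-voom, and 1 had an unadjusted p under 0.05. CALR and HSP90B1, the most abundant by CPM, stood at 0.03 and −0.01 (−0.02 and −0.01 without replicate 2).

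The heat shock element was searched as GAANNTTC on both strands, the core of the site bound by HSF1. It was found in 11 of 20 heat shock promoters, both called members among them, and in 7.05% of all promoters. The HSPA1A promoter is shown as the example (chr6:31815293-31815542, plus strand), with the match in capitals 106 bases before the start.
HSPA1A: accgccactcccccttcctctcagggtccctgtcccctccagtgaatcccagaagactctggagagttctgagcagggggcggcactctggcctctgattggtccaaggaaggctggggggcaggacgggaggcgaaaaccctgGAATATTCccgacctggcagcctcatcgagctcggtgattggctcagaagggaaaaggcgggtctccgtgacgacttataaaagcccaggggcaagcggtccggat

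CENPE, CEP290 and KIF20B were among the 10 largest falls. CENPE, the kinesin that carries chromosomes to the spindle equator (chromosome 4, 103105806 to 103198409, minus strand), measured 56.84, 52.42 and 53.4 CPM with XL413 and 43.09, 28.71 and 39.05 CPM with the combination. Replicate 2 was the lowest, but the other combination libraries were also below all XL413 libraries. CENPE fell by 0.56 ± 0.11 (adjusted p = 0.0404) with replicate 2, and its log2 fold change was −0.41 (adjusted p = 0.00743) without it. CEP290, a protein of the ciliary transition zone (chromosome 12, 88049014 to 88142216, minus strand), measured 29.57, 29.75 and 30.58 CPM against 24.15, 19.22 and 23.81 CPM, −0.42 ± 0.08 (adjusted p = 0.0265; −0.33 and 0.0116 without replicate 2). KIF20B, a kinesin of late mitosis and cytokinesis (chromosome 10, 89701610 to 89774939, plus strand), measured 96.94, 93.23 and 98.32 CPM against 79.11, 62.17 and 78.82 CPM, −0.39 ± 0.08 (adjusted p = 0.0498; −0.29 and 0.0172).

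All 3 have long transcripts, 8612, 7948 and 6419 bases against a median of 3313 over all tested genes, and in all 3 replicate 2, the library whose long transcripts are low, was the lowest. With offsets for length and GC content their changes were −0.55, −0.41 and −0.41, and with these offsets and without replicate 2 they were −0.45, −0.37 and −0.33, all called. Leaving out other libraries ended the calls. For CENPE these were any DMSO or XL413 library, GSK343 replicates 1 or 2, or combination replicate 3 (adjusted p up to 0.176). For KIF20B they were any DMSO or XL413 library or GSK343 replicates 1 or 2 (up to 0.176). For CEP290 they were DMSO replicate 1 (0.0501) or XL413 replicates 1 (0.105), 2 (0.0964) or 3 (0.121).

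**Figure D3:**
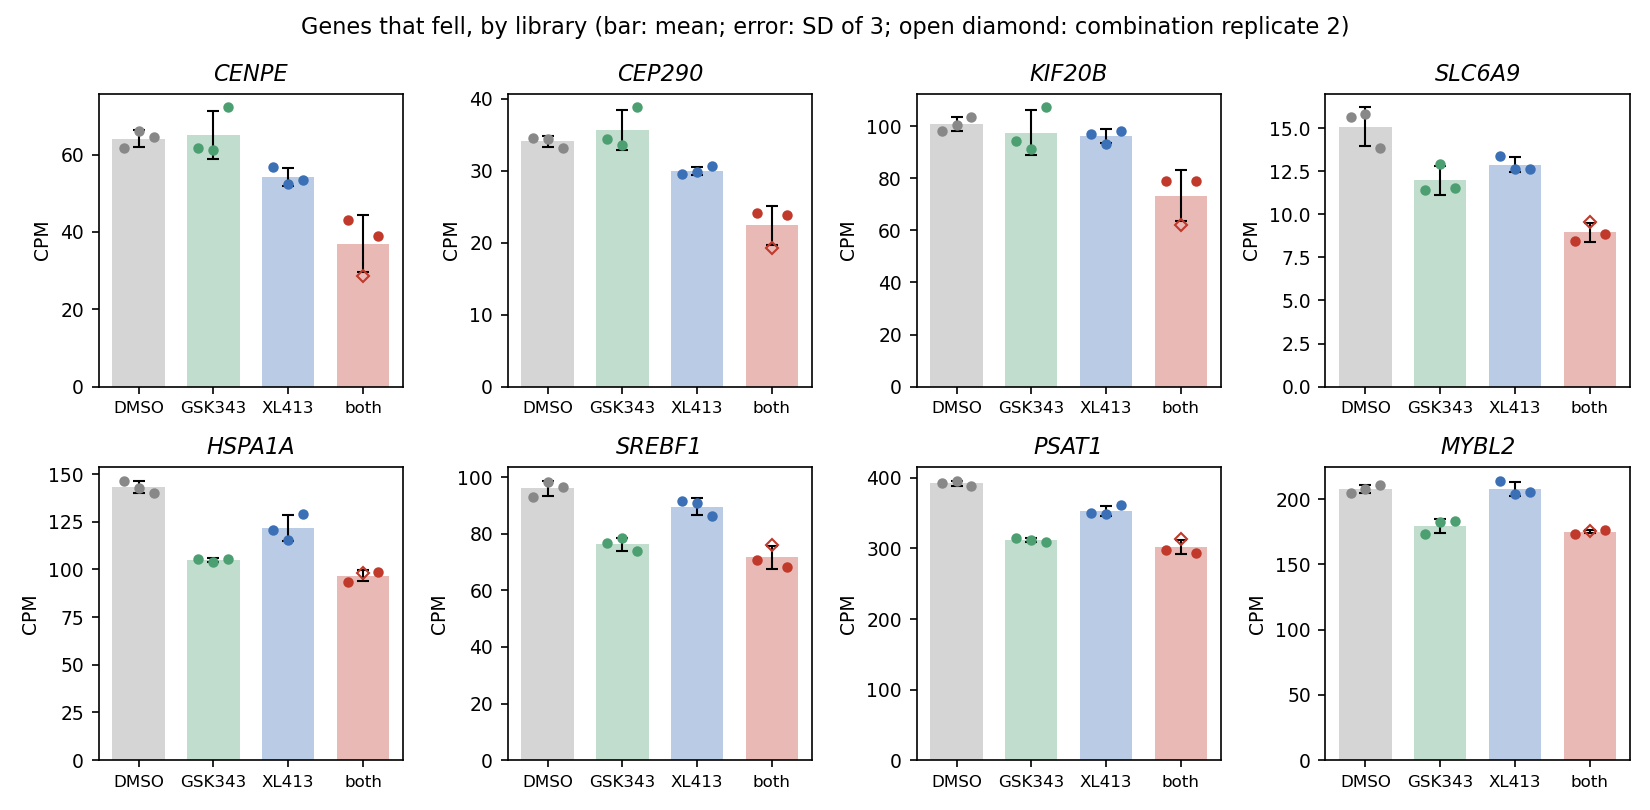
CPM of 8 genes that fell, in DMSO, GSK343, XL413 and combination ("both") libraries, with bars for the mean, whiskers for the SD of 3 libraries, and an open diamond for combination replicate 2. CENPE, CEP290 and KIF20B are lower in the combination than in all 3 other groups, whereas HSPA1A, SREBF1, PSAT1 and MYBL2 are lower with GSK343 both with and without XL413.

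Among the lists of the cell cycle few members were called. Of 46 G2/M genes, 3 fell and 0 rose, with a median of −0.09; without replicate 2, 4 fell and 0 rose, with a median of −0.05. Besides CENPE these were MYBL2 and PLK1. MYBL2, the transcription factor B-Myb, measured 214, 204.2 and 205.8 CPM against 173.7, 175.4 and 176.6 CPM, −0.25 ± 0.04 (adjusted p = 0.00522; −0.25 and 0.00118), and was called in all 12 fits. PLK1, the mitotic kinase, was at −0.16 (adjusted p = 0.0396; −0.17 and 0.00806), a call lost without any DMSO or XL413 library, GSK343 replicate 1, or combination replicates 1 or 3 (adjusted p up to 0.168). Leaving out 1 library at a time gave 1 to 4 called members, the length and GC offsets 9, DESeq2 4 and a fit of only the 6 libraries compared 0. KIF18B, a microtubule-depolymerising kinesin outside the list, measured 57.02, 56.78 and 55 CPM against 46.94, 41.97 and 47.33 CPM, −0.31 ± 0.05 (adjusted p = 0.0104; −0.26 and 0.00327). The KIF18B call was lost without XL413 replicates 1 (0.0638) or 2 (0.0536).

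Of 37 G1/S genes, 2 fell and 0 rose, with a median of −0.08; without replicate 2, 7 fell and 0 rose, with a median of −0.07, and between 0 and 7 fell as single libraries were left out, 7 with the length and GC offsets, 4 by DESeq2 and 0 in a fit of only the 6 libraries compared. POLD1, the catalytic subunit of DNA polymerase delta, was at −0.20 (adjusted p = 0.0345; −0.20 and 0.017), and CHAF1A, a histone chaperone of replication, at −0.17 (adjusted p = 0.0418; −0.16 and 0.0195). Both calls were lost without DMSO replicates 1 or 2, GSK343 replicate 1, any XL413 library or combination replicate 3, and that of CHAF1A also without DMSO replicate 3, GSK343 replicate 2 or combination replicate 1 (adjusted p up to 0.168 and 0.166). E2F1, RRM2, TYMS, UHRF1 and DNMT1 were called lower only without replicate 2, at −0.18, −0.13, −0.16, −0.17 and −0.15. Of 25 genes of the MCM helicase and origin licensing, the machinery on which CDC7 acts, edgeR called 0 with all libraries and 1, RECQL4, without replicate 2 (−0.21, adjusted p = 0.0437). DESeq2 called 3 lower, the fit with length and GC offsets 2 and limma-voom 0. An unadjusted p under 0.05 was reached by 13, all with estimates below 0, beside 15% of all tested genes. MCM7 stood at −0.09 (adjusted p = 0.205; −0.10 and 0.0793) and MCM4 at −0.12 (adjusted p = 0.109; −0.11 and 0.0572).

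The other large falls were PPME1 and WNK4. PPME1, the methylesterase of protein phosphatase 2A, measured 221.4, 220.3 and 222.6 CPM against 180.2, 164.8 and 181.9 CPM, −0.33 ± 0.04 (adjusted p = 0.0013; −0.29 and 8.15e-05), and was called in all 12 fits. WNK4, a kinase that controls salt transport, was at −0.37 ± 0.07 (adjusted p = 0.0265; −0.28 and 0.00561), a call lost without XL413 replicate 1 (0.152), 2 (0.0722) or 3 (0.078). In hypoxia and glycolysis 1 of 33 rose and 1 fell, also without replicate 2. SLC2A1, the glucose transporter GLUT1, was at −0.17 (adjusted p = 0.0298; −0.17 and 0.00776), and its call was lost without DMSO replicate 1, any XL413 library, or combination replicates 1 or 3 (adjusted p up to 0.134). PFKFB4, which makes a regulator of glycolysis, rose by 0.24 (adjusted p = 0.0396; 0.27 and 0.00561), and its call was lost without any library other than combination replicate 2 (adjusted p from 0.0588, GSK343 replicate 1, to 0.183, XL413 replicate 2).

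**Figure D4:**
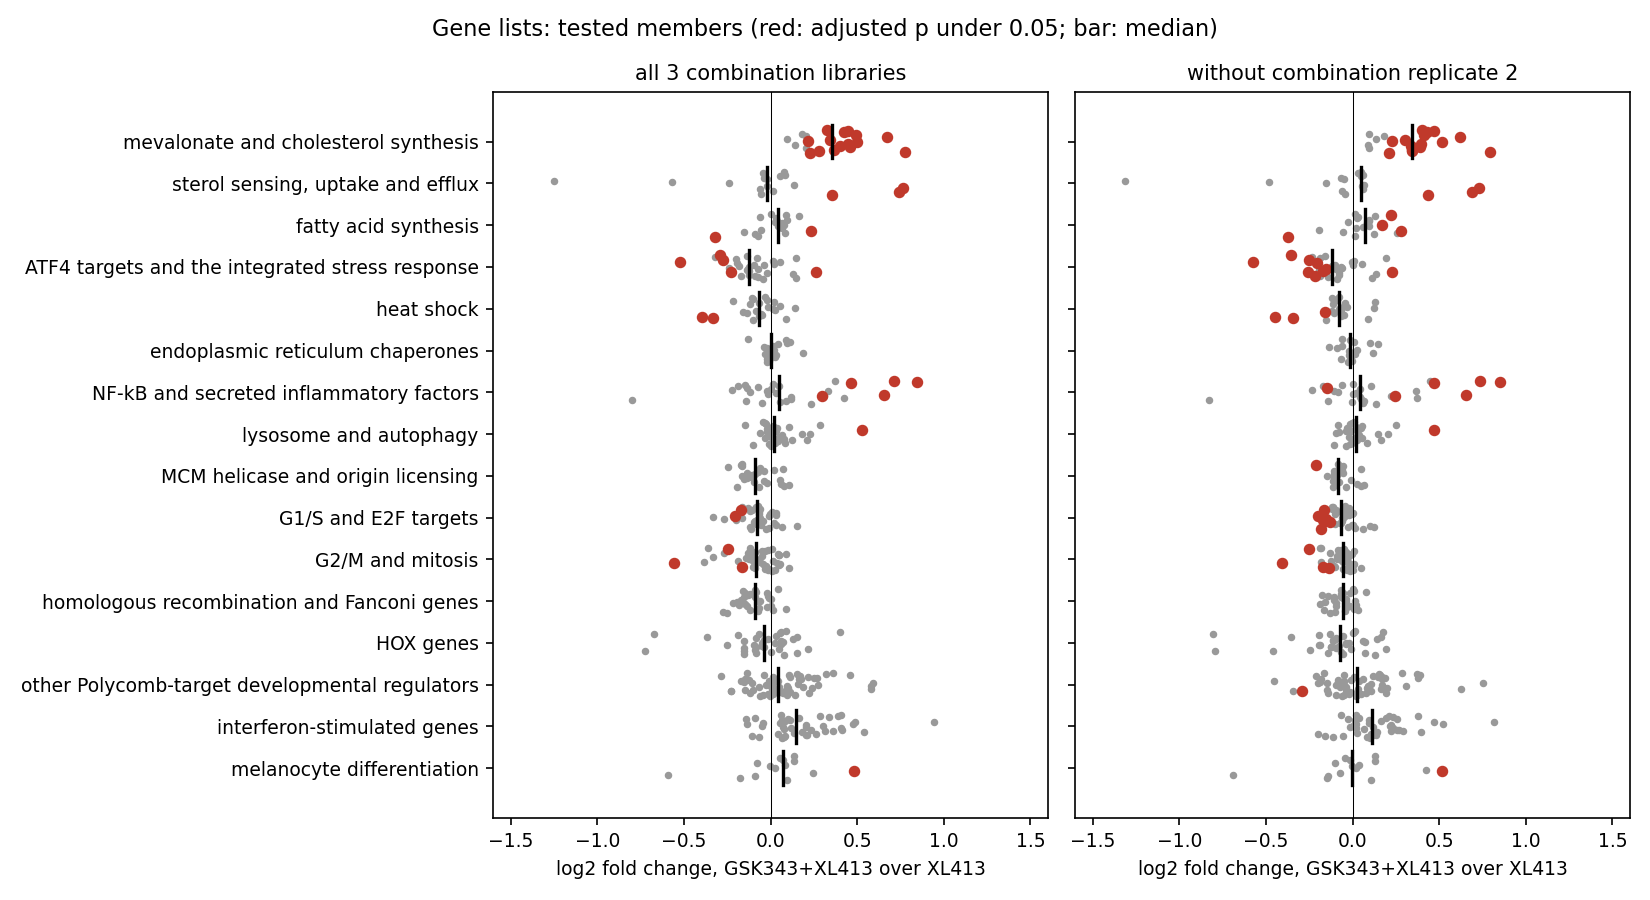
Each dot is the log2 fold change of a tested gene in 16 of the lists, with all 3 combination libraries on the left and without combination replicate 2 on the right; red dots were called and bars are medians. Cholesterol synthesis is the list whose median, 0.36 and 0.35, stands farthest from 0 among those drawn, and the Polycomb-target and HOX lists lie around 0.

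Of 59 tested developmental regulators known as Polycomb targets in other cells, some of them well expressed here, edgeR called 0 with all libraries, with a median log2 fold change of 0.04, and 1 lower without replicate 2, with a median of 0.02. DESeq2 called 1 higher, the fit with length and GC offsets 2 and limma-voom 0, and an unadjusted p under 0.05 was reached by 6 with estimates above 0 and 1 below, beside 15% of all tested genes. TBX3 and TFAP2B, the members with the highest level, stood at −0.01 (adjusted p = 0.93; 0.05 without replicate 2) and 0.11 (adjusted p = 0.361; 0.16). CDKN1C, the p57 inhibitor of cyclin-dependent kinases, had the smallest adjusted p of the list, 0.0799, at 0.36 (0.29 and 0.113 without replicate 2), and was named after its value was seen. GSK343 over DMSO raised CDKN1C by 0.44 (adjusted p = 0.0248). Of 36 HOX genes edgeR, DESeq2 and limma-voom called 0, edgeR also without replicate 2; 3 had an unadjusted p under 0.05, all below 0, and the median was −0.04 (−0.07). HOXC10 was at −0.09 (adjusted p = 0.318; −0.09) and HOXB2 at −0.04 (adjusted p = 0.85; −0.13). On the 80-member Polycomb list 59 passed the filter on low counts and 3 were at 0 in all 6 libraries, so members that stayed silent in both groups were not tested.

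RNA of the compounds' own targets was not called changed. Of 16 tested genes of PRC2, H3K27 demethylases and the CDC7 kinase, edgeR, DESeq2 and limma-voom called 0, and edgeR 0 without replicate 2. An unadjusted p under 0.05 was reached by 6 of the 16, all with estimates below 0, and the fit with length and GC offsets called 1 lower. EZH2 measured 92.97, 87.72 and 90.84 CPM with XL413 and 88.11, 88.42 and 85.69 CPM with the combination (−0.05 ± 0.04, adjusted p = 0.584; −0.06 without replicate 2). CDC7 measured 22.51, 24.59 and 22.79 CPM against 24.96, 23.63 and 25.44 CPM (0.08 ± 0.06, adjusted p = 0.504; 0.11). In both the groups overlapped. EZH1, EED and SUZ12, of the same complexes, stood at −0.09, −0.01 and −0.03, and without replicate 2 at −0.07, −0.06 and −0.08. DBF4 and DBF4B, the activators of CDC7, stood at 0.04 and −0.18 (adjusted p = 0.72 and 0.282), and without replicate 2 at 0.02 and −0.11.

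Immune, damage and survival lists had no called member with all libraries by the main edgeR fit. Over all 15443 tested genes the fit with length and GC offsets called 180 higher and 239 lower, and DESeq2 126 and 168. With length and GC offsets 4 recombination and Fanconi genes and 1 BCL-2 member were called lower. The fit with the offsets called 4 NRF2 targets and 2 interferon-stimulated genes higher. It also called 1 member higher in each of antigen presentation, p53 targets and CDK inhibitors, and 0 histone genes. Interferon-stimulated genes had a median of 0.15 over 42 genes, 35 of them above 0, and 0.11 without replicate 2; DESeq2 called 1, limma-voom 0, and 6 had an unadjusted p under 0.05. IFITM3, which blocks virus entry, stood at 0.07 (adjusted p = 0.596; −0.01). Antigen presentation had a median of 0.11 over 27 genes (0.06 without replicate 2), with HLA-DRA, a class II chain, called only without it (0.20, adjusted p = 0.048); DESeq2 called 1, limma-voom 0, and 8 had an unadjusted p under 0.05. Of 28 p53 targets DESeq2 called 1 and limma-voom 0, and 4 had an unadjusted p under 0.05 (3 above 0, 1 below); CDKN1A, the p21 inhibitor, stood at 0.04 (adjusted p = 0.685; 0.00 without replicate 2, adjusted p = 0.983). The 30 genes of homologous recombination and the Fanconi pathway had a median of −0.09 with 26 estimates below 0 (−0.05 without replicate 2); DESeq2 called 1 lower, limma-voom 0, and 9 had an unadjusted p under 0.05. BRCA1 was at −0.25 (adjusted p = 0.218) with replicate 2 and −0.13 without it, and FANCI at −0.15 (adjusted p = 0.273) and −0.07. The 23 tested histone genes, whose RNA mostly lacks poly-A tails, had a median of 0.12 with replicate 2 and 0.01 without it, with 0 calls by edgeR, DESeq2 and limma-voom and 3 at an unadjusted p under 0.05. Of 8 CDK inhibitors DESeq2 called 1 and limma-voom 0, and 1 had an unadjusted p under 0.05. In the BCL-2 family MCL1 stood at 0.00 (adjusted p = 0.989; 0.01) and BAX at −0.04 (adjusted p = 0.815; −0.12), and BCL2L1 was called lower only without replicate 2 (−0.19); of 17 members DESeq2 called 1 lower and limma-voom 0, and 2 had an unadjusted p under 0.05. The 21 NRF2 targets had a median of 0.06 (0.08 without replicate 2), DESeq2 called 1 higher and limma-voom 0, 8 had an unadjusted p under 0.05, and FTH1 and FTL, the ferritin chains, stood at 0.33 (adjusted p = 0.21; 0.24) and 0.23 (adjusted p = 0.135; 0.14).

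Most of the called genes also moved in the same direction with GSK343 in the absence of XL413. In the 6 libraries that the comparison does not use, GSK343 against DMSO called 180 genes (1.17%), 112 higher (0.725%) and 68 lower (0.44%). Of the 121 genes called with XL413 present, 78 were also called without it, all 78 in the same direction; that is 64.5% of the 121 and 43.3% of the 180. The estimate had the same sign in 119 of the 121, against 66.6% of all tested genes. Without combination replicate 2, 206 of the 252 calls were also calls of GSK343 against DMSO (81.7%, and 21.5% of its 958), all 206 in the same direction, and 247 of the 252 had the same sign, against 70.9% of tested genes. Across 10066 genes with a mean of at least 3 log2 CPM, Pearson's r between the log2 fold changes was 0.59, and 0.699 without combination replicate 2, a description over genes that are not independent. The 2 comparisons share no library but share 1 estimate of the spread. Leaving out combination replicate 2, which is in neither group of the second comparison, raised the calls of GSK343 against DMSO to 958, and leaving out 1 of its own 6 libraries lowered them to between 37 and 68. Cholesterol synthesis had 11 of 20 members higher and 0 lower without XL413, with a median of 0.28, and all 11 are among the 15 called with XL413. HMGCS1 rose by 0.68 without XL413 and by 0.78 with it, MMP3 by 0.87 and 0.84, and SQSTM1 by 0.43 and 0.53.

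**Figure D5:**
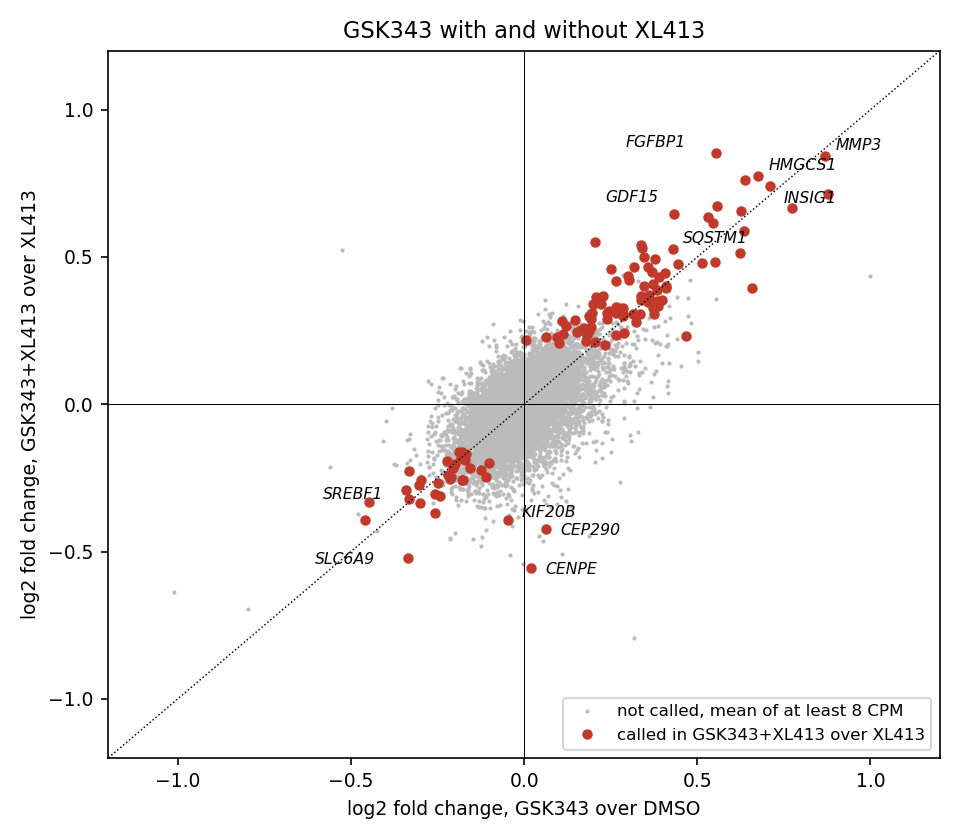
Log2 fold change of GSK343 over DMSO (horizontal) against that of the combination over XL413 (vertical), with the genes called in the second in red and the dotted line where both are equal. Most red points lie near the line, CENPE, CEP290 and KIF20B lie below it near 0 on the horizontal axis, and 1 called gene lies beyond the axes.

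No gene was called for a difference between the 2 GSK343 comparisons (interaction, 0% of tested genes). The smallest adjusted p was 0.766 by edgeR, 413 genes had an unadjusted p under 0.05 (2.67%), limma-voom called 0 and DESeq2 called 2. Those 2 were CA9, described below, and BAGE5, whose log2 estimate of −46.437 is too large to be read as a change. Without combination replicate 2 edgeR called 0, with 438 at an unadjusted p under 0.05. The 121 called genes held 12 (9.92%) with an unadjusted p under 0.05. They were chosen by a difference that is part of this contrast, so their share cannot be compared with that of all tested genes. The 2 called genes with opposite signs were CENPE and CEP290, which measured 0.02 and 0.06 for GSK343 over DMSO. CENPE levels were 61.78, 66.03 and 64.44 CPM with DMSO and 61.74, 61.09 and 72.17 CPM with GSK343. GSK343 replicates 1 and 2 thus lay below every DMSO library, and the sign above 0 rests on GSK343 replicate 3. In that library longer transcripts were higher (rho 0.523). The difference between the comparisons was −0.58 for CENPE (unadjusted p = 0.00279, adjusted p = 0.989), −0.49 for CEP290 (0.000705, adjusted p = 0.989) and −0.34 for KIF20B (0.011, adjusted p = 0.989). Without replicate 2 these were −0.43 (0.00027, adjusted p = 0.841), −0.39 (0.000145, adjusted p = 0.841) and −0.25 (0.00482, adjusted p = 1). So none of them passed the correction in these 2 edgeR fits. With length and GC offsets edgeR called 1 gene, GOLGA4, and 4 genes when replicate 2 was also left out. Whether CENPE, CEP290 or KIF20B is among those 4 is not reported here.

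CA9, the hypoxia-induced carbonic anhydrase, had the smallest unadjusted p for this difference and was named after its values were seen. It measured 1.779, 2.052 and 1.8 CPM with XL413 and 1.457, 1.375 and 1.06 CPM with the combination, while its means were 1.52 CPM with DMSO and 3.27 CPM with GSK343. The change was −0.53 with XL413 present (adjusted p = 0.248) and 1.10 without it (adjusted p = 0.0139), a difference of −1.63 (unadjusted p = 4.96e-05, adjusted p = 0.766; −1.69 and 0.826 without replicate 2). DESeq2 called CA9 for it (adjusted p = 0.00351), and edgeR did not.

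A set of genes was called only when combination replicate 2 was absent, and a smaller one only when it was present. The first held 139 genes, 51 higher with a median transcript of 5940 bases and 88 lower with a median of 3104 bases. AHNAK2, a giant scaffold protein with a transcript of 18254 bases, measured 30.62, 29.05 and 28.98 CPM with XL413 and 38.57, 18.55 and 40.31 CPM with the combination. Replicates 1 and 3 were above every XL413 library and replicate 2 below, so its change was 0.13 (adjusted p = 0.778) with that library and 0.41 (adjusted p = 0.000117) without it. CEMIP, a hyaluronan-binding protein (7357 bases), measured 105.2, 100.5 and 106.5 CPM against 129, 82.04 and 133.5 CPM, or 0.14 (adjusted p = 0.62) and 0.33 (adjusted p = 0.000189). NRP2, a semaphorin co-receptor, went from 0.11 (adjusted p = 0.653) to 0.28 (adjusted p = 0.00146), and PCDH7, a protocadherin, from 0.42 (adjusted p = 0.0703) to 0.54 (adjusted p = 0.00107). TNC, the matrix protein tenascin C, had its lowest level of the 6 libraries, 408 CPM, in combination replicate 2 and its highest, 776 CPM, in XL413 replicate 1, with a change of −0.35 (adjusted p = 0.257) and −0.14 (adjusted p = 0.034).

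The 8 genes called only with replicate 2 all had estimates above 0. AKR1C3, an aldo-keto reductase, measured 7.466, 6.252 and 6.358 CPM against 9.455, 11.1 and 8.824 CPM, or 0.55 (adjusted p = 0.0406) with replicate 2 and 0.44 (adjusted p = 0.0571) without it. HS1BP3 went from 0.31 (adjusted p = 0.039) to 0.24 (adjusted p = 0.0515), VWA5A from 0.43 (adjusted p = 0.0453) to 0.39 (adjusted p = 0.0638) and WDR72 from 0.32 (adjusted p = 0.0473) to 0.26 (adjusted p = 0.0647). All 4 calls were also lost without GSK343 replicates 1, 2 or 3, any XL413 library, DMSO replicate 3 and other libraries, with adjusted p up to 0.166 for HS1BP3, 0.168 for AKR1C3, 0.228 for VWA5A and 0.248 for WDR72.

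Pigment genes were nearly silent while neural crest factors were expressed. SOX10, the neural crest factor, was at 301 to 370 CPM and MITF, the melanocyte master regulator, at 36.6 to 42.7 CPM over the 6 libraries, while the pigment genes TYR (0 in all 6), DCT, MLANA and TYRP1 were under 1 CPM. GPNMB was the 1 melanocyte gene of 15 tested to be called, and the list's median was 0.07, or 0.00 without replicate 2. Of 25 genes of the undifferentiated state 0 were called by edgeR, DESeq2 or limma-voom with all libraries and 1, TNC, without replicate 2. The fit with length and GC offsets called 1 higher, and 7 had an unadjusted p under 0.05. THBS1, thrombospondin, stood at −0.09 (adjusted p = 0.584; −0.03). In the MAPK output list CCND1 stood at −0.05 (adjusted p = 0.567; −0.01) and EPHA2 at −0.17 (adjusted p = 0.128; −0.14), and edgeR called 0 of 21 (1, ETV4, lower without replicate 2), DESeq2 1 lower and limma-voom 0, with 5 at an unadjusted p under 0.05.

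Markers of other cell types did not pass the test. Epithelial markers summed to 650.3 to 683.4 CPM with XL413 and 610.6 to 675.6 CPM with the combination, nearly all of it KRT18 and KRT8, and the defining EPCAM and CDH1 stayed under 1 CPM. Fibroblast markers summed to 234.8 to 279.8 CPM and 219.7 to 231.4 CPM. COL1A1 stood at −0.21 (adjusted p = 0.538) and COL1A2 at −0.20 (adjusted p = 0.486), each lower in all 3 combination libraries, and DPT was under 1 CPM. Of all tested genes, 19.9% had groups that did not overlap. Leukocyte markers summed to 46.75 to 48.19 CPM and 50.56 to 53.23 CPM, nearly all of it CD68. PTPRC was under 1 CPM, and FCGR3A was at 0 in all 6. By edgeR, DESeq2 and limma-voom 0 members of the 3 lists were called, and 1 fibroblast and 1 leukocyte gene had an unadjusted p under 0.05. The part of these levels in the results was not tested.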

How the data were processed

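The deposited table holds RSEM expected counts per gene. Per the submitters' processing notes the authors used Bowtie2 2.1.0, RSEM 1.2.15 and hg38; those sources give neither gene annotation nor strand setting. RSEM divides reads between similar genes by estimate.

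Expected counts were rounded and fitted in R 4.3.3 with edgeR 4.0.16: filterByExpr (minimum count 10), TMM, 1 quasi-likelihood model of 4 groups over all 12 libraries (8 residual degrees of freedom), two-sided tests, Benjamini-Hochberg adjustment over all tested genes. Errors are SE. Alternatives used DESeq2 1.42.0 and limma-voom (limma 3.58.1). The main fit was run on simulated data, without a length trend in combination replicate 2 where calls were counted. A separate simulation put such a trend into that library and gave only the rho of fold changes with length. Error rates under that trend were not examined. Lengths and positions are of GENCODE 29, whose names or older symbols matched 23872 and 718 genes and missed 1883.

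The rule named the 10 largest rises and falls called with and without combination replicate 2, with non-overlapping groups and at least 1 log2 CPM; up to 6 called members of each of 29 lists, or the 2 most abundant where none was called; compound targets; and up to 4 genes called only with or only without that library. Members and lists were chosen with earlier results of these data known. Some named-gene results are not reported here.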

Additional observations from a re-analysis of the deposited data

How the results depend on the processing

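For the combination against XL413 the 121 calls became 294 with DESeq2, 18 in a fit of only the groups compared and 399 in that fit without combination replicate 2, 419 with length and GC offsets, and 525 with the offsets (a pairing chosen after seeing the data) and without that library. Rises (86) became 17, 207, 180 and 193 in the last 4 of these. Falls (35) became 168, 1, 192, 239 and 332 in all 5, 55 with RLE size factors and 53 with a filter of at least 5 CPM in 3 libraries. Leaving out 1 library gave 40 to 252 calls, 31 to 129 rises and 9 to 123 falls. The interaction went from 0 to 2 calls with DESeq2 (CA9 and BAGE5) and 1 with the offsets (GOLGA4, −0.359). It had 4 with the offsets and without combination replicate 2, and stayed at 0 on leaving out a library. GSK343 against DMSO went from 180 to 338 with DESeq2, 422 in a fit of its own groups, 626 with the offsets, 1780 with the offsets and without combination replicate 2, and 37 to 958 on leaving out a library. The causes were not tested.

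Deviations of same-numbered libraries correlated at 0.108, 0.226 and 0.0542. The other pairs lay between −0.346 (XL413 replicate 2 with combination replicate 3) and 0.292 (XL413 replicate 1 with combination replicate 3). These correlations also carry each library's trend with transcript length, so they cannot decide whether same-numbered libraries were paired. With a replicate block the comparison called 96 genes, 68 higher and 28 lower, 91 of them among the 121 (135 without combination replicate 2), and GSK343 against DMSO 108, or 729 without combination replicate 2. With the replicate block and the offsets the counts were 236 calls and 127 falls, and 477 for GSK343 against DMSO. Among called genes named by the rule, no direction changed under any alternative run; estimates of uncalled genes near 0 could change sign. At 3 libraries a group, and a median SE of 0.0815 (0.0729 without combination replicate 2), small changes of low genes could not be called.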

Other observations

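Of the 12 called genes that differed in size between the 2 GSK343 comparisons at an unadjusted p under 0.05, CENPE, CEP290 and KIF20B are described above. In the main edgeR fit none of the 12 passed the correction over all tested genes. The other 9 were chosen after their values were seen. All 12 were called in a comparison that is part of this difference, so the selection itself favours a large difference. SQLE, MVD and ACAT2, of cholesterol synthesis, had rises larger with XL413 present by 0.15 (unadjusted p = 0.0234), 0.21 (0.0291) and 0.13 (0.0433). Without combination replicate 2 the values were 0.17 (unadjusted p = 0.0114), 0.14 (0.0853) and 0.11 (0.0703). SH3BP5, OMA1 and AKR1C3 had rises larger by 0.16 (0.0265), 0.17 (0.0473) and 0.35 (0.0492), and by 0.15 (0.0361), 0.14 (0.0933) and 0.24 (0.133) without that library. MVD, ACAT2, OMA1 and AKR1C3 were thus no longer under 0.05 without it. ESM1, a secreted proteoglycan of endothelium also made by tumour cells, measured 45.06, 44.82 and 45.18 CPM with XL413 and 50.69, 54.13 and 52.37 CPM with the combination, a rise of 0.22 (adjusted p = 0.0193; 0.19 and 0.0161 without combination replicate 2), while GSK343 over DMSO gave 0.01 (adjusted p = 0.971). SERPINA3, a protease inhibitor of the acute phase, rose by 0.23 with XL413 present (adjusted p = 0.0265; 0.21 and 0.0191) and by 0.47 without it (adjusted p = 0.000236). UCN2, a peptide hormone of the corticotropin-releasing family, rose by 0.40 (adjusted p = 0.00709; 0.42 and 0.00461) and 0.66 (adjusted p = 0.000231). The differences were 0.21 for ESM1 (unadjusted p = 0.00178), −0.23 for SERPINA3 (0.00219) and −0.26 for UCN2 (0.00907), each with an adjusted p of 0.989. Without combination replicate 2 they were 0.18, −0.26 and −0.25, with adjusted p of 1, 0.903 and 1. The ESM1 and SERPINA3 calls with XL413 present were lost without DMSO replicates 2 or 3, any XL413 library or combination replicate 3, SERPINA3 also without combination replicate 1 (adjusted p up to 0.147 and 0.192), and that of UCN2 without XL413 replicate 1 (0.0791).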
